A study of Homo sapiens with 52 samples.

Results

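The genes of cholesterol and fatty acid synthesis were followed in WI-38 cells, an established line of normal human lung fibroblasts, as the cells entered senescence by 4 routes. The set held 34 of the 59408 genes listed, taken by their symbols: 22 genes of sterol synthesis and its control, 9 genes of fatty acid synthesis and its control, and 3 targets of the liver X receptors (LXR). All 34 had a mean level of at least 10 normalised counts over the groups and so were among the 14898 genes tested. Cells were exposed for 24 h to 0.009% SDS, which damages the plasma membrane (PMD-Sen), to 75 mM KCl, which lets calcium in (Ca2+-Sen), or to 250 nM of the DNA-damaging drug doxorubicin, DXR (DDR-Sen). They were then washed and collected on day 0, which is the end of the exposure, then daily up to day 4, and on days 6, 8 and 16. Cells in replicative senescence (RS) had been passaged to a population doubling level (PDL) of about 52, and the untreated cells were at PDL 32 to 46. The labels give no PDL for the treated cells. This gave 26 groups of 2 libraries for mRNA sequencing, 52 in all, and all of them came from wild-type cells of this 1 line. The 2 samples of a group are described as independent in the methods, so p-values measure the spread between 2 such samples.

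The deposited tables hold, for each of 25 conditions, the mean normalised count of a gene, its log2 fold change against untreated cells, the standard error (SE) and a p-value, and no value of a single library. Every level below is therefore a mean over 2 libraries, and whether the libraries of 2 groups overlap could not be seen. A gene was called higher or lower where its p-value, adjusted over all 14898 genes by the Benjamini-Hochberg method, was under 0.05, and "rose" and "fell" are used only of such calls. All 25 comparisons share the same 2 untreated libraries, which are also the smallest, at 15.4 M and 18.8 M counted reads against 19.1 M to 58 M in the treated groups. A change seen in all 25 tables therefore cannot be told apart from a feature of those 2 libraries, and the labels give 1 group of untreated cells with no day, so time in culture cannot be told apart from treatment either. Differences between inducers or days do not rest on the untreated level. In bulk samples a smaller share of cells that express a gene and less of its RNA per cell cannot be told apart.

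Cells keep their membrane cholesterol within narrow bounds. When cholesterol in the endoplasmic reticulum is low, the factors SREBP2 (gene SREBF2) and SREBP1 (SREBF1) are cut free and turn on genes of sterol and fatty acid synthesis, and when it is high, INSIG1 holds them back. LXRs sense oxidised sterols and turn on genes that remove cholesterol: ABCA1 and ABCG1, which export it, and MYLIP, which has lipoprotein receptors degraded. The pathway from acetyl-CoA runs through ACAT2, HMGCS1, MVK, PMVK, MVD, IDI1 and FDPS to squalene (FDFT1), and then through SQLE, LSS, CYP51A1, TM7SF2, MSMO1, NSDHL, HSD17B7, EBP, SC5D and DHCR7 to cholesterol.

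The sequence before the start site is shown for 6 members on which the results below turn: 4 sterol genes that rose with SDS, TMEM97, which fell there, and ABCA1. RefSeq (GRCh38.p14) held a promoter window of 250 bases before to 50 bases after the start for 29 of the 34 members, with 39 windows in all. SQLE, FDFT1, ACAT2, FASN and ABCG1 had none in the table. Each line below gives the 250 bases before the start, 5′ to 3′ on the strand of the gene, with matches of 3 motifs in capitals: CCAAT, read as ATTGG on the opposite strand, which binds NF-Y, a partner of the SREBPs; TCACNCCAC, the core of a sterol regulatory element, where N is any base; and CACGTG, an E-box that SREBPs can also bind. The windows are chr4:165327419-165327668 on the plus strand for MSMO1, chr7:155297628-155297877 on the plus strand for INSIG1, chr5:43313413-43313662 on the minus strand for HMGCS1, chr22:41832855-41833104 on the plus strand for SREBF2, chr17:28318950-28319199 on the plus strand for TMEM97 and chr9:104928156-104928405 on the minus strand for ABCA1.
MSMO1: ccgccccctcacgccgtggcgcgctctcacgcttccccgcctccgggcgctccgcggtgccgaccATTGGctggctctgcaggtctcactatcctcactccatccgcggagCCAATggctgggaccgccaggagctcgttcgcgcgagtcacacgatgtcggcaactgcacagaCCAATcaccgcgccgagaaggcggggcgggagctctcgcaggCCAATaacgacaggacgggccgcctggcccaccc
INSIG1: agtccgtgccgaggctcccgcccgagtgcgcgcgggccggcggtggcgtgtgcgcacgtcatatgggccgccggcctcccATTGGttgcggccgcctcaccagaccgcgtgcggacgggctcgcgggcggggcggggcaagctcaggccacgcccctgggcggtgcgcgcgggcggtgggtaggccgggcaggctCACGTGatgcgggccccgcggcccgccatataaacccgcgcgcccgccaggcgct
HMGCS1: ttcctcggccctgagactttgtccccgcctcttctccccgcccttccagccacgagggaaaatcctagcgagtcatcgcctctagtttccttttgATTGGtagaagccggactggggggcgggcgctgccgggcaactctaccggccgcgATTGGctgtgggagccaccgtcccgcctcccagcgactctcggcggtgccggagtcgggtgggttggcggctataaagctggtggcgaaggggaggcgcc
SREBF2: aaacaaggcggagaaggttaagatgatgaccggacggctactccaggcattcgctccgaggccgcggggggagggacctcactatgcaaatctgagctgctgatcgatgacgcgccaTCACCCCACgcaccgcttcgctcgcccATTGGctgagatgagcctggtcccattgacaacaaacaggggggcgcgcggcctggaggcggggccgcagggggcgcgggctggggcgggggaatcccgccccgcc
TMEM97: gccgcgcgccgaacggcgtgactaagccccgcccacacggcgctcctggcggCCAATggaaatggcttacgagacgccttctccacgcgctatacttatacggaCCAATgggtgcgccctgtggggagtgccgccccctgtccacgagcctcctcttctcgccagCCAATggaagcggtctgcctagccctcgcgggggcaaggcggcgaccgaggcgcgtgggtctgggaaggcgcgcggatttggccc
ABCA1: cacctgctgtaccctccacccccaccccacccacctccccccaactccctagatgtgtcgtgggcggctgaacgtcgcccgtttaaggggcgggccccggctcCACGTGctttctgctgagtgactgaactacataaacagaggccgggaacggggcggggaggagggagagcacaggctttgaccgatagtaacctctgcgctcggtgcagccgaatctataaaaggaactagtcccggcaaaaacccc

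CCAAT stood on either strand in the windows of 17 of the 19 sterol genes that had one, of 4 of 8 fatty acid genes and of 1 of 2 LXR targets, against 39.7% of the 27305 genes of the reference table. MSMO1 held 4 copies, TMEM97 held 3, HMGCS1 held 2 in the window shown, and ABCA1 had none in the stretch shown. An exact match of the core TCACNCCAC was found in the window of 1 member, SREBF2, at 133 bases before the start, and in 1.39% of all genes. CACGTG was found for INSIG1, SC5D and LSS among the sterol genes, for no fatty acid gene and for ABCA1, and in 8.77% of all genes. An exact repeat of AGGTCA at a spacing of 4 bases, a form that LXRs bind, was in no member's window and in 0.0256% of all genes. Only exact matches were counted, so sites with other letters were missed. A window without a match may therefore still hold a site for SREBPs or LXRs. These counts describe the letters in the windows and say nothing of which factor was bound.

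At the end of the exposure the sterol genes had similar medians in PMD-Sen and Ca2+-Sen and a lower one in DDR-Sen. In PMD-Sen 12 of the 22 sterol genes rose and 1 fell on day 0, where 19.8% of all tested genes rose and 20.2% fell, and the median of the 22 log2 fold changes was 0.67, against -0.00 for all tested genes. MSMO1, which removes methyl groups from the sterol ring, stood at 1008 normalised counts in untreated cells and 4247 after SDS, a log2 fold change of 2.08 ± 0.40 (SE; adjusted p = 1.39e-06). INSIG1 went from 656 to 2176 (1.73 ± 0.50) and SQLE, the squalene epoxidase, from 1387 to 4349 (1.65 ± 0.15). These 3 genes had more than 3-fold the untreated level. TMEM97, a sterol-regulated membrane protein, was the 1 sterol gene that fell, from 407 to 130 (-1.64 ± 0.26).

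In Ca2+-Sen 13 of the 22 sterol genes rose and 2 fell on day 0, beside 23.6% and 26.5% of all tested genes, with a median of 0.60. HMGCS1, which makes HMG-CoA, went from 612 to 1484 (1.28 ± 0.15), and HSD17B7, a late reductase, from 94.4 to 226 (1.26 ± 0.26). TMEM97 fell to 166 (-1.30 ± 0.20), and the other gene that fell was PMVK, the phosphomevalonate kinase. In DDR-Sen 2 of the 22 rose and 5 fell, beside 12.9% and 14.9% of all tested genes, with a median of -0.19. TM7SF2, a sterol reductase, rose from 155 to 420 (1.44 ± 0.28), SQLE fell to 824 (-0.75 ± 0.20) and HSD17B7 rose to 158 (0.74 ± 0.28). The other 4 that fell were MVK, ACAT2, LSS and MVD, which act early in the pathway or, for LSS, close the sterol rings.

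**Figure D1:**
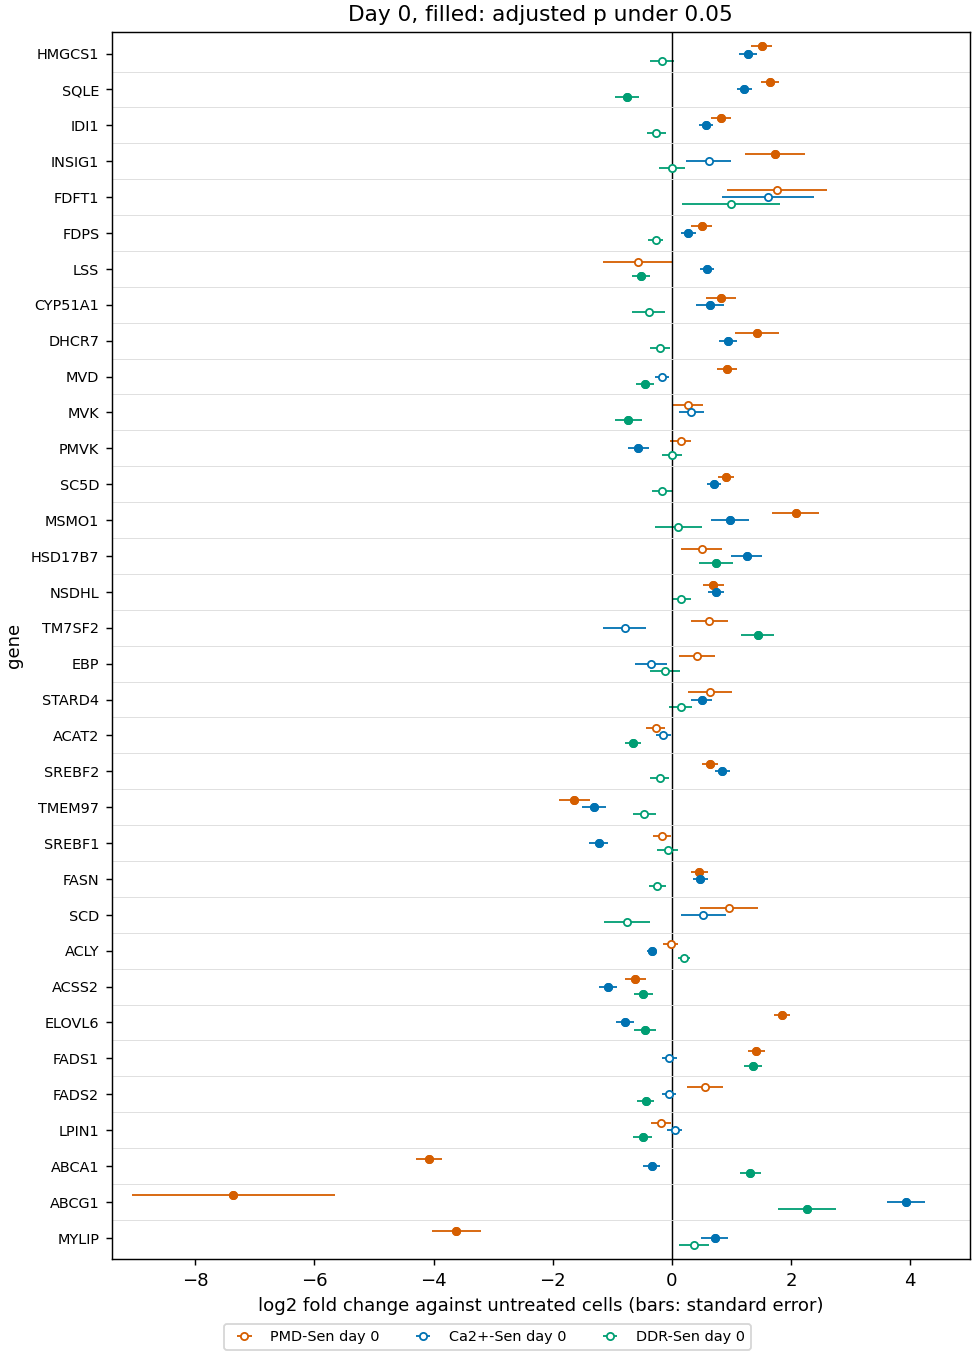
Log2 fold change of the 34 genes against untreated cells on day 0 (x axis), with 1 row per gene, 1 colour per inducer and bars of 1 standard error; filled points passed an adjusted p of 0.05. Most sterol genes lie to the right in PMD-Sen and Ca2+-Sen and near or left of 0 in DDR-Sen, while ABCA1 lies at -4.07 in PMD-Sen, -0.34 in Ca2+-Sen and 1.32 in DDR-Sen.

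The fatty acid genes were mixed on day 0. In PMD-Sen 3 of the 9 rose and 1 fell, beside 19.8% and 20.2% of all tested genes, with a median of 0.46. ELOVL6, which lengthens palmitate, went from 934 to 3368 (1.85 ± 0.13), and FADS1, a desaturase of polyunsaturated fatty acids, from 1886 to 5032 (1.42 ± 0.14). ACSS2, which makes acetyl-CoA from acetate, fell from 1045 to 686 (-0.61 ± 0.17). The third gene that rose was FASN, the fatty acid synthase, at 8054 in untreated cells and 11093 after SDS.

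With KCl 1 fatty acid gene rose, FASN at 11259, and 4 fell, beside 23.6% and 26.5% of all tested genes, with a median of -0.05. SREBF1 fell from 1435 to 613 (-1.23 ± 0.16, adjusted p = 6.16e-14), ACSS2 to 497 (-1.07 ± 0.15) and ELOVL6 to 542 (-0.79 ± 0.15). SREBF2 rose in the same cells, from 2703 to 4861 (0.85 ± 0.12), so the genes of the 2 SREBPs moved in opposite directions. With DXR 1 rose and 4 fell, beside 12.9% and 14.9% of all tested genes, with a median of -0.44. FADS1 went to 4857 (1.36 ± 0.15), LPIN1, a phosphatidate phosphatase, fell from 2059 to 1470 (-0.49 ± 0.16), ACSS2 fell to 749 (-0.48 ± 0.16), and ELOVL6 and FADS2 fell as well.

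The LXR targets showed the widest spread between inducers on day 0. ABCA1 stood at 1277 in untreated cells, at 76.2 after SDS (16.7-fold lower, log2 fold change -4.07 ± 0.22, adjusted p = 1.62e-73), at 1007 after KCl (-0.34 ± 0.14) and at 3188 after DXR (1.32 ± 0.18). ABCG1 stood at 29.9 in untreated cells, at 449 after KCl (3.93 ± 0.32) and at 144 after DXR (2.27 ± 0.49). After SDS ABCG1 was below 1.49 normalised counts, the level that 3 reads over both libraries would give, and so at least 20.2-fold lower than in untreated cells. MYLIP went from 207 to 16.8 after SDS (-3.62 ± 0.41) and 341 after KCl (0.72 ± 0.23), and was at 268 after DXR (0.37 ± 0.25), which did not pass the test. Thus all 3 LXR targets fell in PMD-Sen, where sterol genes rose, while 2 of 3 rose and 1 fell in Ca2+-Sen, and 2 of 3 rose in DDR-Sen. Of all tested genes 20.2% fell in PMD-Sen, 23.6% rose and 26.5% fell in Ca2+-Sen, and 12.9% rose in DDR-Sen. Set at its bound, ABCG1 left the median of the class in PMD-Sen at -4.07.

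A call in one inducer and not in another is no test of the difference, so the log2 fold changes were also compared directly on day 0. The errors of both tables were combined as if independent, which counts the untreated libraries more than once and gives too few calls. With a correlation of 0.5 between the errors in its place, 23 of the 34 members differed between PMD-Sen and DDR-Sen, beside 42.9% of all tested genes. Between Ca2+-Sen and DDR-Sen 26 differed, beside 51.3%, and between PMD-Sen and Ca2+-Sen 17 differed, beside 52.4%. Taken as independent, the errors gave the counts that follow. Between PMD-Sen and DDR-Sen 20 of the 34 members differed: 12 sterol and 4 fatty acid genes were higher in PMD-Sen, where 15.0% of all tested genes were, and TMEM97 and the 3 LXR targets were lower, where 13.6% were. The difference was 2.40 ± 0.25 for SQLE, 2.30 ± 0.22 for ELOVL6, 1.97 ± 0.56 for MSMO1 and 1.74 ± 0.55 for INSIG1. SCD, the stearoyl-CoA desaturase, differed too (1.71 ± 0.63, adjusted p = 0.027), although neither of its own changes passed the test, 0.96 ± 0.49 in PMD-Sen and -0.75 ± 0.39 in DDR-Sen. ABCA1 differed by -5.39 ± 0.28.

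Between Ca2+-Sen and DDR-Sen 23 members differed on day 0. Of these, 12 sterol genes, 2 fatty acid genes and ABCG1 were higher in Ca2+-Sen (18.3% of all tested genes), and 3 sterol genes, 4 fatty acid genes and ABCA1 were lower (18.8%). SQLE differed by 1.98 ± 0.24, HMGCS1 by 1.45 ± 0.25 and SREBF2 by 1.05 ± 0.20, while TM7SF2 differed by -2.23 ± 0.45, FADS1 by -1.41 ± 0.19 and SREBF1 by -1.16 ± 0.23. Between PMD-Sen and Ca2+-Sen 9 differed: 3 sterol and 3 fatty acid genes were higher in PMD-Sen (20.5% of all tested genes) and the 3 LXR targets were lower (18.1%). The sterol genes were MVD (1.10 ± 0.21), PMVK (0.71 ± 0.24) and TM7SF2 (1.43 ± 0.47), and the fatty acid genes ELOVL6 (2.64 ± 0.19), FADS1 (1.46 ± 0.19) and SREBF1 (1.05 ± 0.21). For HMGCS1, SQLE and DHCR7, which rose with both SDS and KCl, no difference passed the test between these 2 inducers, though that of SQLE passed with correlated errors.

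One day after the wash the classes had moved again. Between day 0 and day 1 of PMD-Sen 5 sterol genes came down and none came up, where 13.4% of all tested genes came down and 15.6% up. SQLE changed by -1.35 ± 0.20, MSMO1 by -1.17 ± 0.43, HMGCS1 by -0.70 ± 0.23, SC5D by -0.59 ± 0.19 and SREBF2 by -0.56 ± 0.18. The 3 LXR targets came up, ABCA1 by 3.53 ± 0.26 to 879 and MYLIP by 2.80 ± 0.49 to 117, and ABCG1 reached 46.4. ELOVL6 changed by -1.47 ± 0.19 and FADS1 by -0.95 ± 0.18, and ACLY, which makes acetyl-CoA from citrate, came up by 0.76 ± 0.15.

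In DDR-Sen the step from day 0 to day 1 had the opposite sign. There 8 sterol genes came up and none came down, where 1.28% of all tested genes came up and 2.27% down: HMGCS1, SQLE, IDI1, FDPS, DHCR7, MVD, ACAT2 and SREBF2, by between 0.67 ± 0.20 for SREBF2 and 1.14 ± 0.25 for SQLE. FADS2, also a desaturase, came up by 1.04 ± 0.19 and ABCA1 changed by -1.24 ± 0.22. In Ca2+-Sen 5 sterol genes came up (20.0% of all tested genes) and 4 came down (16.5%), the latter being HMGCS1, SQLE, SC5D and SREBF2. TM7SF2 came up by 2.02 ± 0.44, 4 fatty acid genes came up with it, among them ELOVL6 (1.07 ± 0.19) and SREBF1 (0.65 ± 0.20), and ABCG1 changed by -4.51 ± 0.73.

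**Figure D2:**
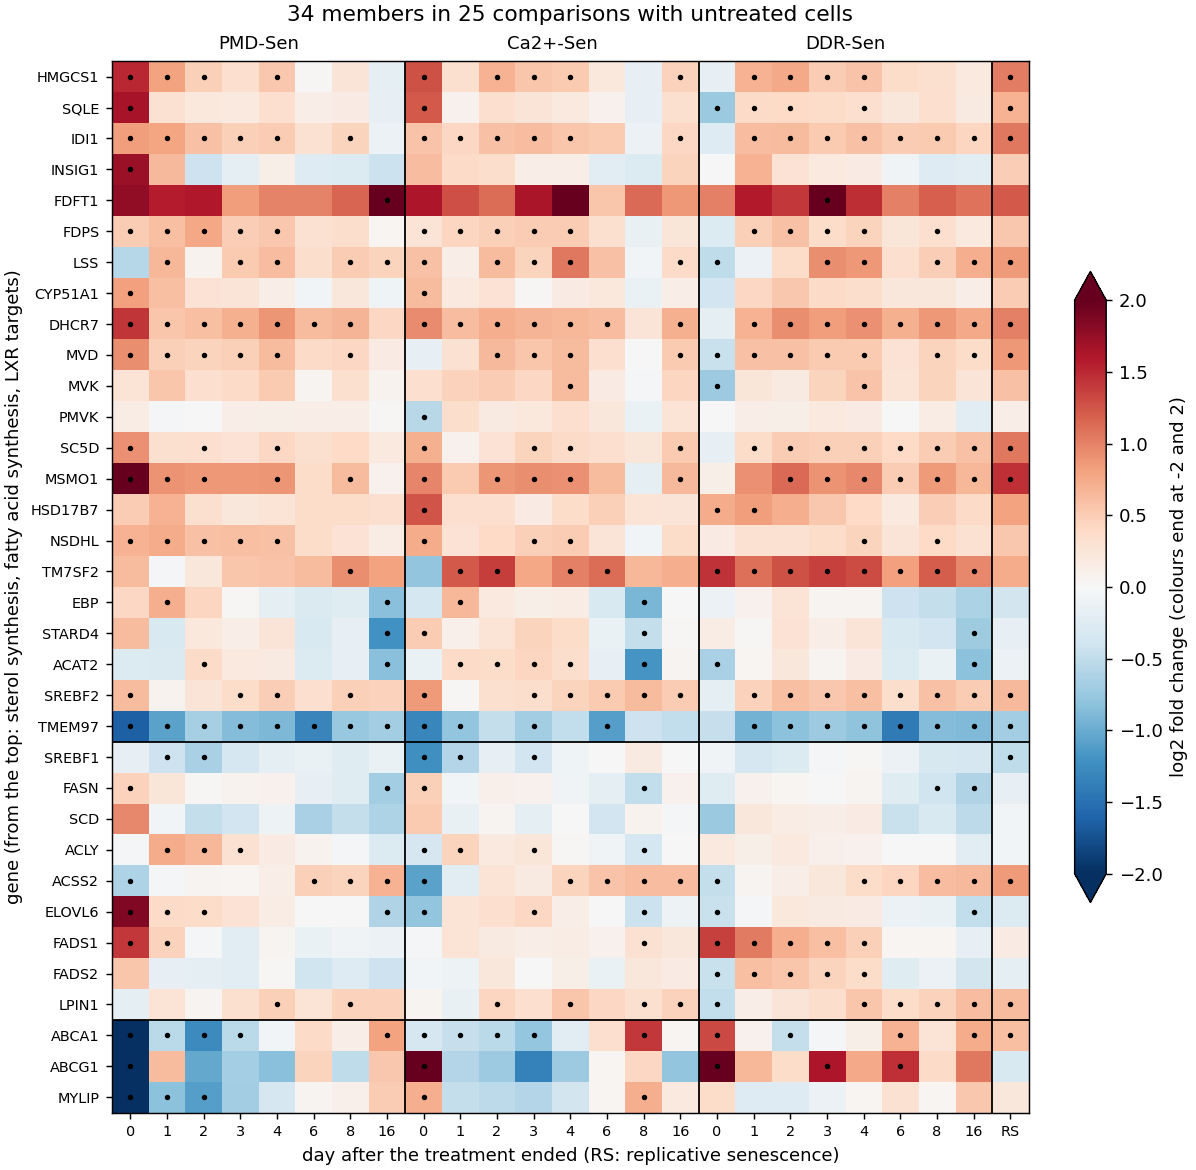
Log2 fold change of each of the 34 genes (rows) in each of the 25 comparisons with untreated cells (columns, by inducer and day), in red where higher and blue where lower, with colours ending at -2 and 2; black dots mark an adjusted p under 0.05. Most sterol rows are pale red after day 0 with all 3 inducers, TMEM97 is blue in 25 of 25 columns, and the fatty acid rows are mixed.

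From day 1 to day 6 the median of the sterol genes was above 0 with all 3 inducers, at a lower value than after SDS or KCl on day 0. In PMD-Sen 9 of the 22 rose and 1 fell on day 1 (all tested genes 9.63% and 10.0%), 9 and 1 on day 2 (8.80% and 6.99%) and 7 and 1 on day 3 (5.42% and 6.06%). On day 4, 10 rose and 1 fell (7.31% and 8.38%), on day 6, 1 and 1 (5.78% and 6.97%), and on day 8, 7 and 1 (5.75% and 6.04%). The median of the 22 lay between 0.30 and 0.58 on these days, and the 1 gene that fell was TMEM97 each time.

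In DDR-Sen 10 rose and 1 fell on day 1 (all tested genes 8.50% and 11.0%), 10 and 1 on day 2 (5.18% and 7.47%) and 11 and 1 on day 3 (4.71% and 6.86%). On day 4, 13 rose and 1 fell (7.92% and 10.5%), on day 6, 6 and 1 (10.7% and 13.8%), and on day 8, 10 and 1 (10.3% and 11.8%). The median lay between 0.26 and 0.53, and TMEM97 was again the gene that fell. So the class that stood lowest of the 3 inducers on day 0 had a share of rises above the background from day 1 on.

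In Ca2+-Sen 6 rose and 1 fell on day 1 (all tested genes 5.34% and 7.13%), 9 and 0 on day 2 (1.77% and 2.56%) and 11 and 1 on day 3 (4.77% and 5.71%). On day 4, 13 rose and 0 fell (4.98% and 7.03%), and on day 6, 3 and 1 (4.71% and 5.52%). At unadjusted p-values of the deposited tables TMEM97 was below untreated cells on days 2 and 4 as well. On day 1 of Ca2+-Sen 42.8% of all calls over all genes were rises, and 55.7% when levels were scaled by library totals. With this scaling the larger group of calls, rises or falls, also changed on days 0 to 2 of PMD-Sen and day 0 of Ca2+-Sen. It changed on days 4, 6 and 16 of DDR-Sen and in RS as well. On day 0 of PMD-Sen, for example, the share of rises went from 49.5% to 52.5%. Day 8 of Ca2+-Sen stood apart over all tested genes, of which 15.5% rose and 17.8% fell, beside 4.71% and 5.52% on day 6. Of the 22 sterol genes 1 rose, SREBF2, and 3 fell, so neither share was above that of all tested genes. The median of the sterol genes was -0.12. ACAT2, the first enzyme of the pathway, fell there from 1062 to 469 (-1.18 ± 0.13), EBP, a sterol isomerase, from 155 to 82.5 (-0.91 ± 0.29) and STARD4, which carries cholesterol between membranes, from 992 to 717 (-0.47 ± 0.18). ABCA1 rose to 3410 (1.42 ± 0.11) and MYLIP to 344 (0.73 ± 0.20) on that day.

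**Figure D3:**
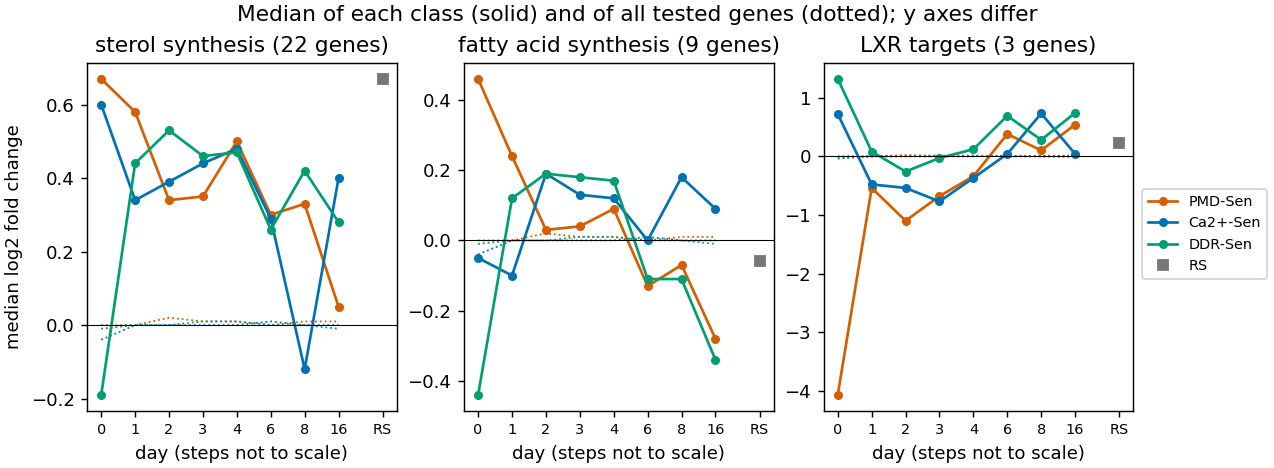
Median log2 fold change of the sterol synthesis (22 genes), fatty acid synthesis (9 genes) and LXR target (3 genes) classes by day, with 1 line per inducer, a square for RS and dotted lines for the median of all tested genes; the y axes differ. The sterol median of DDR-Sen goes from -0.19 on day 0 to 0.44 on day 1, and the LXR median of PMD-Sen from -4.07 to -0.54.

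The sterol class has 550 gene-by-table values over the 25 tables, of which 36.4% were called higher and 6.18% lower, beside 8.94% and 10.4% over all tested genes. For the fatty acid class these shares were 20.4% and 9.78% of 225 values, and for the LXR targets 16.0% and 17.3% of 75. The values of 1 gene over the tables share the untreated libraries and are not independent. Members of the sterol class differed in how often they were called. DHCR7, the last enzyme of the pathway, rose in 22 of 25 tables, IDI1 in 20, SREBF2 in 18 and MVD and MSMO1 in 17 each. DHCR7 was above untreated cells in 24 tables and IDI1 in 22. What those tables share cannot be told apart from a low level in the 2 untreated libraries. At the other end CYP51A1 and MVK rose in 2 tables each, INSIG1 in 1 and PMVK in 0, with PMVK above untreated cells in 20 tables and past an unadjusted p of 0.05 in 2 of them.

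TMEM97 was below untreated cells in every table, also where most of its class rose. Its untreated level was 407, and its levels lay between 130 (day 0 of PMD-Sen) and 306 (day 8 of Ca2+-Sen), and it fell in 20 of 25 tables, with a median log2 fold change of -0.81, and at an unadjusted p under 0.05 it was lower in all 25. As this change was present in every table, it cannot be told apart from a high level in the 2 untreated libraries. On day 0, however, TMEM97 was also lower in PMD-Sen than in DDR-Sen (-1.19 ± 0.32) and lower in Ca2+-Sen than in DDR-Sen (-0.84 ± 0.27), differences that do not rest on the untreated level. FDFT1, squalene synthase, was listed at 8.80 normalised counts in untreated cells and between 13.0 and 119 elsewhere, and its 2 calls rest on few reads. Its level is uncertain, because how the counting treated reads that FDFT1 may share with other annotated genes is not given in the sources used here.

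INSIG1 had its highest level on day 0 of PMD-Sen. Its untreated level was 656, and in PMD-Sen it stood at 2176, 1030, 490, 573, 707, 549, 542 and 485 over the 8 days in turn. In Ca2+-Sen it lay between 541 on day 8 and 1008 on day 0, in DDR-Sen between 548 on day 8 and 1056 on day 1, and in RS at 920. Of the comparisons with untreated cells, that of day 0 of PMD-Sen passed the test, and the standard errors of its log2 fold changes ran from 0.20 to 0.50. The difference from Ca2+-Sen on day 0, 1.11 ± 0.63, did not pass (adjusted p = 0.161), but did with a correlation of 0.5 between the errors.

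HMGCS1 stayed above its untreated level of 612 in 22 of 25 tables and rose in 14. In PMD-Sen it stood at 1739, 1068, 847, 771, 888, 624, 726 and 537 on the 8 days in turn, and in Ca2+-Sen at 1484, 763, 986, 901, 877, 706, 547 and 843. In DDR-Sen it began below untreated cells and stood at 542, 997, 1038, 868, 906, 786, 765 and 696. In RS it was at 1243 (1.02 ± 0.36). The order on day 0 was thus PMD-Sen, Ca2+-Sen and DDR-Sen, with no called difference between PMD-Sen and Ca2+-Sen, and after day 0 no difference between inducers passed the test for HMGCS1. With correlated errors PMD-Sen and Ca2+-Sen differed on days 1 and 16, and Ca2+-Sen and DDR-Sen on day 8.

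SREBF1 was never called higher. Its untreated level was 1435, and in Ca2+-Sen it stood at 613, 961, 1282, 1092, 1343, 1433, 1630 and 1448 over the 8 days, a fall on days 0, 1 and 3. In PMD-Sen it lay between 914 on day 2 and 1314 on day 16, with falls on days 1 (-0.41 ± 0.14) and 2 (-0.65 ± 0.13), and in DDR-Sen between 1136 and 1464 with none. RS was at 1008 (-0.51 ± 0.20). The gene of SREBP2, by contrast, rose in 18 of 25 tables and fell in 0, with 22 rises and 0 falls at an unadjusted p under 0.05.

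SCD was called in none of the 25 tables by these p-values, deposited in columns named as DESeq2 writes them, and in 1 table at an unadjusted p under 0.05, day 16 of PMD-Sen. Its untreated level was 4339. In PMD-Sen it stood at 8442, 4154, 3102, 3340, 4042, 2773, 3100 and 2827 over the 8 days, in Ca2+-Sen between 3317 and 6271, in DDR-Sen between 2586 and 5051, and in RS at 4152. Its standard errors, 0.24 to 0.49, leave room for changes of this size, so a change of SCD from untreated cells was not detectable with 2 libraries a group, although PMD-Sen and DDR-Sen differed on day 0 as given above. LPIN1 behaved otherwise, with levels of 1470 to 3202 against 2059 in untreated cells and standard errors of 0.12 to 0.22. It rose in 11 tables, reaching 2867 on day 4 of PMD-Sen, 3022 on day 4 of Ca2+-Sen, 3147 on day 16 of DDR-Sen and 3202 in RS.

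**Figure D4:**
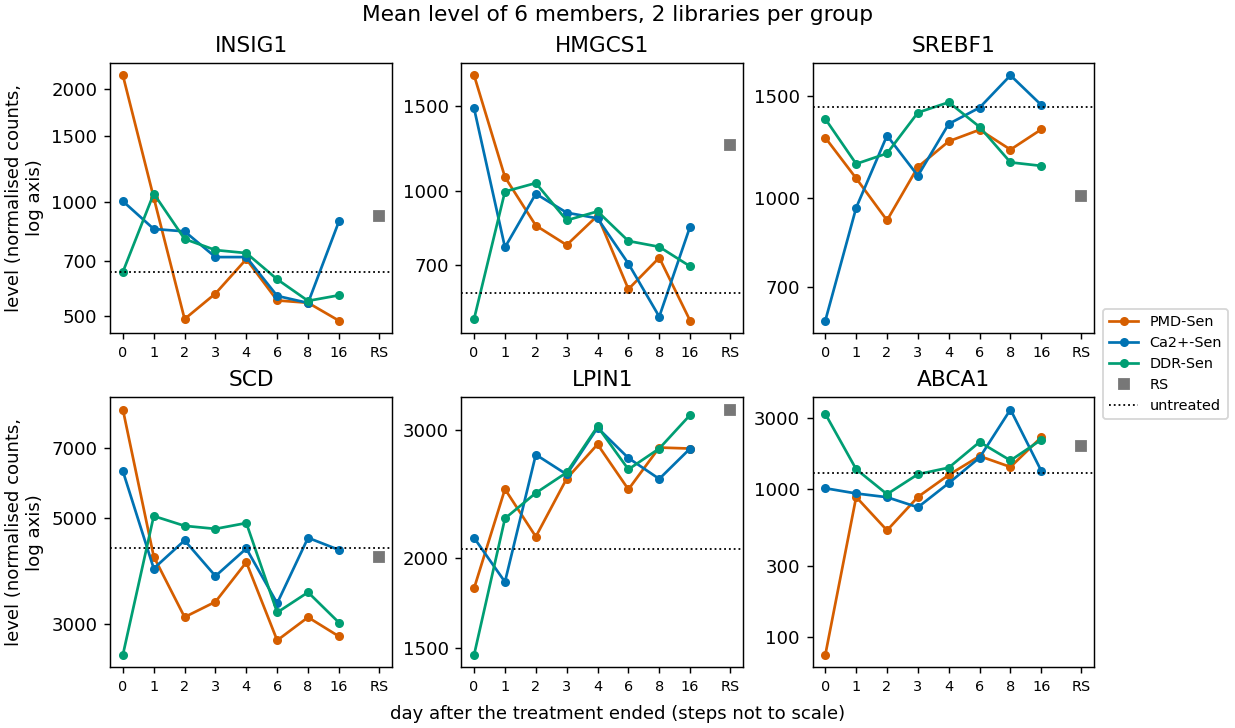
Mean level of INSIG1, HMGCS1, SREBF1, SCD, LPIN1 and ABCA1 in normalised counts (log y axes that differ between panels) by day, with 1 line per inducer, a square for RS and a dotted line at the untreated level; each point is the mean of 2 libraries, with no error bar because the tables give none for a level. ABCA1 falls to 76.2 on day 0 of PMD-Sen and reaches 3410 on day 8 of Ca2+-Sen.

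ABCA1 moved more than any of the other 5. In PMD-Sen it stood at 76.2, 879, 524, 880, 1238, 1657, 1400 and 2221 over the 8 days, called lower on days 0 to 3 and higher on day 16. In Ca2+-Sen it stood at 1007, 929, 877, 750, 1090, 1618, 3410 and 1316, called lower on days 0 to 3 and higher on day 8. In DDR-Sen it stood at 3188, 1352, 918, 1251, 1385, 2061, 1548 and 2136, called higher on days 0, 6 and 16 and lower on day 2. With all 3 inducers its lowest level between days 1 and 4 lay below the untreated 1277, and its level on day 6 lay above it, a rise that passed the test in DDR-Sen.

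After day 0 the counts of members that differed between inducers depended on how the shared untreated libraries were treated. Summed over the 7 later days they were 11 between PMD-Sen and DDR-Sen, 8 between PMD-Sen and Ca2+-Sen and 12 between Ca2+-Sen and DDR-Sen with independent errors, and 24, 37 and 33 with a correlation of 0.5. The counts by day are those with independent errors. PMD-Sen and DDR-Sen differed in 5 of 34 members on day 1 (12.3% of all tested genes differed in either direction), 4 on day 2 (7.31%), 2 on day 3 (1.81%), and 0 on days 4 (0.752%), 6 (0.624%) and 8 (0.812%). At an unadjusted p under 0.05 of the same test 2, 0 and 0 differed on those last days. Ca2+-Sen and DDR-Sen differed in 4 members on day 1 (7.74%), 1 on day 2 (3.22%), 1 on day 3 (1.54%), 0 on days 4 (1.14%) and 6 (0.671%) and 4 on day 8 (4.88%). PMD-Sen and Ca2+-Sen differed in 1 on day 1 (4.42%), 2 on day 2 (2.38%), 0 on days 3 (0.148%), 4 (0.148%) and 6 (0.0134%), and 2 on day 8 (3.28%). Where the count was 0, an unadjusted p under 0.05 was reached by 1 member on each of days 3 and 4 and by none on day 6 for this last pair, and by none on days 4 and 6 for Ca2+-Sen and DDR-Sen.

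The desaturases FADS1 and FADS2 stood out among these. FADS1 was at 1886 in untreated cells and at 3892, 3129, 2870 and 2633 on days 1 to 4 of DDR-Sen, a rise each time, against 2598, 1846, 1617 and 1969 in PMD-Sen. It was lower in PMD-Sen than in DDR-Sen by -0.58 ± 0.17, -0.76 ± 0.16 and -0.83 ± 0.20 on days 1, 2 and 3. FADS2, from 4119 in untreated cells, was at 6251, 6042 and 5583 in DDR-Sen and at 3691, 3608 and 3528 in PMD-Sen on those days, with differences of -0.76 ± 0.17, -0.74 ± 0.17 and -0.66 ± 0.19. ACLY went the other way: it rose to 17494 on day 1 and 16592 on day 2 of PMD-Sen from 10474, and was higher than in DDR-Sen by 0.62 ± 0.12 and 0.48 ± 0.11. On day 8 the differences of Ca2+-Sen from DDR-Sen were ACAT2 (-1.04 ± 0.19), MSMO1 (-1.04 ± 0.25), IDI1 (-0.64 ± 0.19) and ABCA1 (1.14 ± 0.17).

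On day 16 the sterol genes of PMD-Sen had a median near 0, although the direct test below found no member that differed between PMD-Sen and DDR-Sen. In PMD-Sen 2 of the 22 rose and 4 fell (9.63% and 11.5% of all tested genes), with a median of 0.05. STARD4 fell from 992 to 428 (-1.21 ± 0.23, adjusted p = 4.91e-06), ACAT2 from 1062 to 593 (-0.84 ± 0.19), and EBP and TMEM97 fell too. The 2 that rose were LSS and FDFT1, the latter to 119 (3.76 ± 0.80) from its low level. In Ca2+-Sen 8 rose and 0 fell (5.79% and 6.08%), with a median of 0.40. DHCR7 went from 1095 to 1792 (0.71 ± 0.15), MSMO1 to 1584 (0.65 ± 0.16) and SC5D from 957 to 1377 (0.53 ± 0.12).

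In DDR-Sen on day 16, 8 rose and 3 fell (13.2% and 16.7%), with a median of 0.28. TM7SF2 rose to 301 (0.96 ± 0.29), while TMEM97 fell to 222 (-0.88 ± 0.25) and ACAT2 to 602 (-0.82 ± 0.15). STARD4, at 607, was the third that fell. In RS 9 rose and 1 fell (11.6% and 11.5%), with a median of 0.67. MSMO1 reached 2776 (1.46 ± 0.33, adjusted p = 0.000157), SC5D 1997 (1.06 ± 0.22) and IDI1, the isopentenyl isomerase, 2273 (1.06 ± 0.34), and TMEM97, at 252, was the gene that fell. The labels give no PDL for the treated cells and no day for RS. Levels of RS and the 3 inducers are therefore given side by side with no test between them.

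Among the fatty acid genes ACSS2 and LPIN1 were the ones that rose late. On day 16 ACSS2 stood at 1683 in PMD-Sen (0.69 ± 0.17), 1606 in Ca2+-Sen (0.62 ± 0.13) and 1638 in DDR-Sen (0.65 ± 0.15), and at 1879 in RS (0.85 ± 0.19), after it had fallen with all 3 inducers on day 0. FASN fell to 4987 in PMD-Sen (-0.69 ± 0.18) and 5297 in DDR-Sen (-0.60 ± 0.15), and ELOVL6 to 616 (-0.60 ± 0.21) and 660 (-0.50 ± 0.16), and neither was called in Ca2+-Sen or RS. LPIN1 rose in Ca2+-Sen (2829, 0.46 ± 0.12), DDR-Sen (3147, 0.61 ± 0.15) and RS (3202, 0.64 ± 0.22), and had the same level and a larger error in PMD-Sen (2829, 0.46 ± 0.18). ABCA1 rose in PMD-Sen (2221, 0.80 ± 0.16), DDR-Sen (2136, 0.74 ± 0.18) and RS (1939, 0.60 ± 0.17), and was at 1316 in Ca2+-Sen (0.04 ± 0.12).

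**Figure D5:**
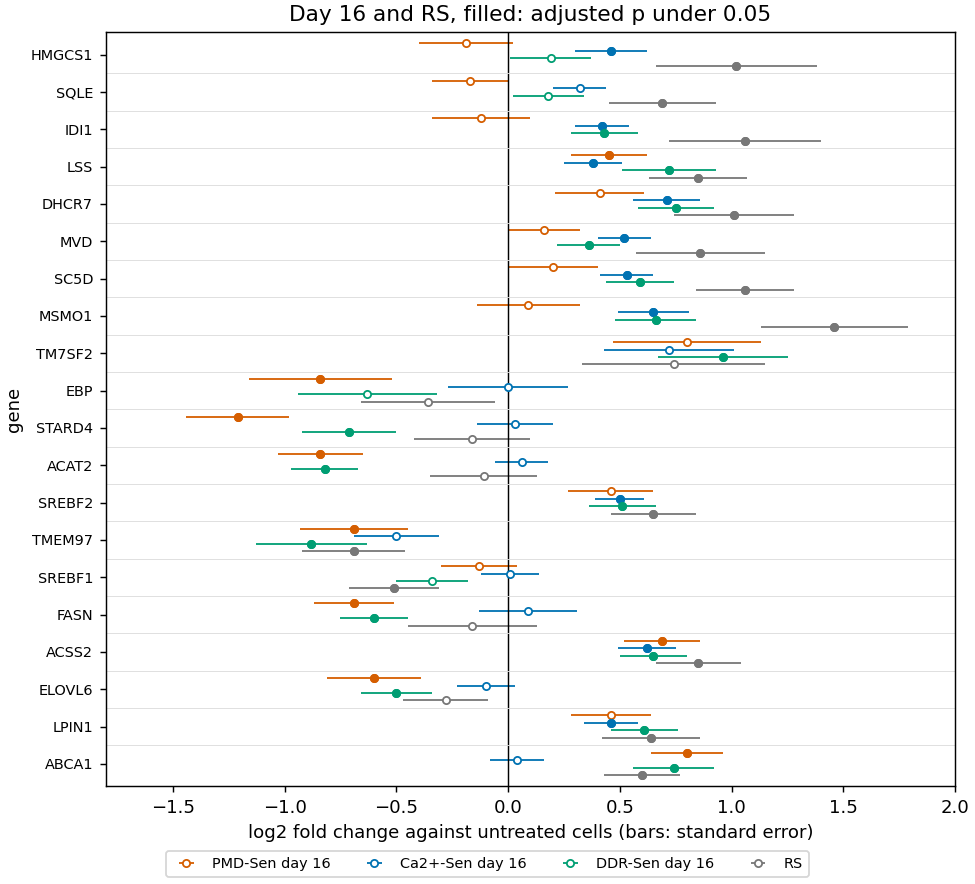
Log2 fold change against untreated cells on day 16 of each inducer and in RS (x axis) for the members called in at least 1 of these 4 comparisons, FDFT1 left out, with bars of 1 standard error and filled points for an adjusted p under 0.05. STARD4 and ACAT2 lie left of 0 in PMD-Sen and DDR-Sen and near 0 in Ca2+-Sen, and ACSS2 lies right of 0 in all 4.

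On day 16 the inducers were again compared directly, with independent errors. Between PMD-Sen and DDR-Sen 0 of the 34 members differed by this normal test (0.175% of all tested genes were higher in PMD-Sen and 0.0201% lower), and 2 reached an unadjusted p under 0.05. With correlated errors this count was 0 as well. PMD-Sen and Ca2+-Sen then differed in 9 members, beside 9.22% of all tested genes. Ca2+-Sen and DDR-Sen then differed in 7 members, beside 15.1%. Between PMD-Sen and Ca2+-Sen STARD4 (-1.24 ± 0.29) and ACAT2 (-0.90 ± 0.23) were lower in PMD-Sen (1.97%) and ABCA1 was higher (0.76 ± 0.20; 0.745%). Between Ca2+-Sen and DDR-Sen ACAT2 was higher in Ca2+-Sen (0.88 ± 0.19; 4.42%) and ABCA1 was lower (-0.70 ± 0.22; 1.96%). Thus 2 genes, ACAT2 and ABCA1, differed between Ca2+-Sen and both other inducers on day 16 with independent errors. With correlated errors STARD4, FASN and FADS2 did so too.

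Of 25 further genes of the pathway, 24 were tested and DGAT1 was listed at or near 0. The list covers the machinery that activates SREBPs, further enzymes of fatty acid and lipid synthesis, and sterol storage, transport and the LXRs themselves. On day 0, 9 of the 24 rose and 2 fell in PMD-Sen, 8 and 6 in Ca2+-Sen and 4 and 3 in DDR-Sen, where 19.8% and 20.2%, 23.6% and 26.5%, and 12.9% and 14.9% of all tested genes did. On day 16 the counts were 8 and 2 (9.63% and 11.5%), 3 and 0 (5.79% and 6.08%), and 6 and 1 (13.2% and 16.7%), and in RS 5 and 2 (11.6% and 11.5%). The called genes with the largest median change over the 25 tables were DGAT2, which makes triglycerides, and NPC2 and NPC1, which carry cholesterol out of lysosomes.

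NPC2 rose in 17 tables and fell in none. It was at 1398 in untreated cells and on day 16 it rose to 2383 in PMD-Sen (0.77 ± 0.15), 1925 in Ca2+-Sen (0.46 ± 0.11) and 2521 in DDR-Sen (0.85 ± 0.13). Its level in RS was 2880 (1.04 ± 0.16), also a rise. NPC1, at 931 in untreated cells, rose on day 0 to 3860 in PMD-Sen (2.05 ± 0.15), 2181 in Ca2+-Sen (1.23 ± 0.15) and 1357 in DDR-Sen (0.54 ± 0.18), but over all tables it rose in 6 and fell in 8. DGAT2 rose in 7 tables from a low level of 37.8, to 177 in RS (2.23 ± 0.48) and 108 on day 16 of PMD-Sen (1.51 ± 0.43).

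The labelled cell type was checked against its markers. All 8 fibroblast markers were detected, and their summed level was 590782 in untreated cells and lay between 241523 and 624190 over the 26 groups. Of the 4 epithelial markers 2 reached 10 in some group, with a summed level of 249 to 2136 that was almost all KRT19. EPCAM was at 12.9 and KRT5 at 0 in untreated cells. Of the 4 immune markers 2 reached 10, with a summed level of 12.5 to 205 that was mostly CD14, and CD3E at 0 in untreated cells. CD14 was at 21.7 in untreated cells and at most at 203, and PTPRC at 0.212 and at most at 19.7. Of the 3 endothelial markers 2 reached 10, with a summed level of 25.7 to 174, and CDH5 at 0 in untreated cells. PECAM1 was at 2.20 in untreated cells and at most at 108, and VWF at 34.6 and at most at 72.1. What part other cells might have in the results was not tested.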

How the data were processed

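The deposited data describe mRNA of WI-38 cells sequenced in pairs of reads. Per the submitters' processing notes the authors used Trim Galore, HISAT2, featureCounts, HTSeq and DESeq2 with GRCh38 (hg38). Versions and roles are not given in the sources used here. The 52 deposited files hold 25 distinct tables of comparisons with untreated cells, each deposited as 2 identical files, the RS table as 4. For each gene the authors deposited a normalised count averaged over the libraries compared, used as a signal, and a log2 fold change. Its error, also in log2 units, a score that divides the fold change by this error, and the p-value before and after adjustment were deposited beside them. No counts per library were used here. The columns are the authors' own comparisons, and they were used because the genes cannot be followed over the tables otherwise. There were 0 further columns with values of single libraries.

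The level in each group was computed from the mean and the log2 fold change and put on 1 scale through the untreated level of the 8645 genes whose mean passed 200 in each of the tables. The median SD of the log2 untreated level over the tables was 0.00043 after this step. A row that names no gene was dropped in 23 tables. Genes with a mean level of at least 10 over the 26 groups were tested (14898 of 59408, alternatively 10568 at 100 or more), and the p-values that the authors deposited, in columns named as DESeq2 writes them, went through a Benjamini-Hochberg adjustment, 1 table at a time. Genes were called at an adjusted p under 0.05. To compare 2 tables, 1 log2 fold change was subtracted from the other and divided by the square root of the sum of both squared errors. The test was two-sided and adjusted over all tested genes. The counted reads of each library were recovered from what 1 read is worth in genes with few reads. The floor of a level is that of 3 reads over both libraries of a group, and covers counting error only.

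Members and gene lists were chosen with earlier results of these data known. All members could be named; levels and log2 fold changes were given for at most 3 called members per class with the largest change in a comparison, for INSIG1, HMGCS1, SREBF1, SCD, LPIN1 and ABCA1 in all groups, and for the 3 called genes of the other pathway list with the largest median change. Further values in the text belong to genes that were singled out after their values were seen. Promoter windows came from RefSeq (GRCh38.p14). Scripts ran under Python 3.11.15 with matplotlib 3.10.9, SciPy 1.17.1, pandas 2.3.3 and NumPy 2.4.6, and the tests were checked on simulated data. Some genes of the pathway are not reported here.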

Additional observations from a re-analysis of the deposited data

Results flagged for a closer look

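For the 6 members followed over all groups, 10 differences between inducers on day 0 passed the test of the difference itself. ABCA1 differed in every pair, by -5.39 ± 0.28 (SE) on the log2 scale between PMD-Sen and DDR-Sen, by -3.72 ± 0.26 between PMD-Sen and Ca2+-Sen and by -1.66 ± 0.23 between Ca2+-Sen and DDR-Sen. Its level was 76.2 normalised counts after SDS, 1007 after KCl and 3188 after DXR.

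HMGCS1 differed by 1.68 ± 0.27 between PMD-Sen and DDR-Sen and by 1.45 ± 0.25 between Ca2+-Sen and DDR-Sen, and INSIG1 by 1.74 ± 0.55 between PMD-Sen and DDR-Sen. SCD differed by 1.71 ± 0.63 between the same pair, with a 95% interval of 0.47 to 2.95, and it was called in no comparison with untreated cells. SREBF1 was lower in Ca2+-Sen than in both others, with a difference of 1.05 ± 0.21 between PMD-Sen and Ca2+-Sen and of -1.16 ± 0.23 between Ca2+-Sen and DDR-Sen. LPIN1 differed by 0.54 ± 0.20 between Ca2+-Sen and DDR-Sen.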

How the results depend on the processing

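Of the alternatives named next, those that change a threshold, a filter or the adjustment leave each fold change as it is and could not change its sign. Centring and scaling used log2 shifts between -0.062 and 0.030, and no called value of a single member changed sign. Of the 327 called values of single members, 321 kept their call when the fold changes were centred on the median gene, 320 when scaled by library totals, 326 with the deposited adjusted p-values, 281 with no filter on low genes and 51 when a log2 fold change of at least 1 was also asked for, and 320 of 320 that could be tested kept it at a mean level of at least 100. Summed over the 8 days, the numbers called are given for PMD-Sen, Ca2+-Sen and DDR-Sen in turn: 57, 64 and 70 rises and 11, 8 and 14 falls of sterol genes, 14, 13 and 17 rises and 5, 9 and 7 falls of fatty acid genes, and 1, 4 and 6 rises and 8, 4 and 1 falls of LXR targets. With a log2 fold change of at least 1, under which the falls of fatty acid genes in Ca2+-Sen outnumbered the rises, the sterol genes gave 6, 7 and 8 rises and 4, 3 and 1 falls, the fatty acid genes 2, 0 and 2 rises and 0, 2 and 0 falls, and the LXR targets 0 rises in PMD-Sen, 2 in Ca2+-Sen, and 5, 0 and 0 falls. In RS this left 5 rises and 0 falls of sterol genes and 0 rises and 0 falls of fatty acid genes, with 0 rises of LXR targets. Member differences, summed over the days, went from 31 to 16 (PMD-Sen and DDR-Sen), 17 to 11 (PMD-Sen and Ca2+-Sen) and 35 to 15 (Ca2+-Sen and DDR-Sen), and those between days 0 and 1 from 12 to 6, 15 to 6 and 10 to 4. Most of the changes were thus under 2-fold. With a correlation of 0.5 between errors for the shared untreated libraries, the differences numbered 47, 54 and 59. The shares of all tested genes under that correlation are given above for day 0 and, for the pairs with Ca2+-Sen, for day 16. Those between days 0 and 1 numbered 19 in PMD-Sen (42.5% of all tested genes) and 17 in DDR-Sen (11.9%). With no filter 0 fatty acid genes fell in RS, from 1, and at a mean level of at least 100 LXR targets rose 3 times in DDR-Sen, from 6. Alternatives chosen after seeing the data left out a day: without day 0 the fatty acid genes fell 5 times in Ca2+-Sen and 3 times in DDR-Sen and the LXR targets rose 2 times in Ca2+-Sen, and without day 8 they rose 2 times there.

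No paired analysis was possible because the tables hold no value per library. For the same reason leaving out each replicate was not run. With 2 libraries per group, small changes of genes with a large error, such as SCD, INSIG1 and FDFT1, were not detectable, and the untreated libraries have the fewest reads.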

Other observations

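Some further lipid genes, picked after their values were seen, changed on day 0. ELOVL5, which lengthens polyunsaturated fatty acids, was at 1988 normalised counts in untreated cells and rose to 7327 in PMD-Sen (log2 fold change 1.88 ± 0.10, SE), while it fell to 1299 in Ca2+-Sen (-0.61 ± 0.11) and to 978 in DDR-Sen (-1.02 ± 0.12). INSIG2, which like INSIG1 holds SREBPs back, rose from 352 to 1005 in PMD-Sen (1.51 ± 0.16) and was at 370 in Ca2+-Sen and 283 in DDR-Sen. In Ca2+-Sen ME1, which makes NADPH for lipid synthesis, rose from 2236 to 8040 (1.85 ± 0.09), and it rose to 3465 in PMD-Sen (0.63 ± 0.12). Of the genes that activate SREBPs, the protease MBTPS2 fell from 1327 to 572 (-1.21 ± 0.13) and the escort protein SCAP from 2036 to 1102 (-0.89 ± 0.11) in Ca2+-Sen, where SREBF1 also fell and SREBF2 rose.

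LPCAT3, a phospholipid enzyme and a target of LXRs, was called with all 3 inducers on day 0. It was at 259 in untreated cells, fell to 127 in PMD-Sen (-1.03 ± 0.27) and rose to 505 in Ca2+-Sen (0.96 ± 0.18) and 365 in DDR-Sen (0.49 ± 0.19). On day 16 it rose in PMD-Sen (445), Ca2+-Sen (403) and DDR-Sen (418), and in RS (439). SMPDL3A, also a target of LXRs, was at 400 in untreated cells and on day 0 at 464 in PMD-Sen (0.21 ± 0.19), 553 in Ca2+-Sen (0.47 ± 0.16, a rise) and 403 in DDR-Sen (0.01 ± 0.17).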
